A study of Mus musculus with 2 samples.

Results

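Pmch and Parpbp, a pair of mouse genes that overlap on opposite strands of chromosome 10, were followed through single hypothalamic cells of newborn mice. They are 2 of the 24905 genes in a table of Drop-seq counts, in which each captured RNA molecule of a cell is counted once through its unique molecular identifier (UMI). The pair was chosen by name with earlier results of these data known, Pmch for its difference between the libraries. Their levels in the libraries are therefore given as a description. The 1 Sim1 heterozygous library came from Sim1-Cre;tdTomato+/-;Sim1+/- pups and the 1 control library from Sim1-Cre;tdTomato+/- pups. Each pooled the hypothalami of 6 CD-1 pups aged postnatal day 1 to 4, and viable tdTomato+ cells were sorted from each. In both libraries the reporter (Ai14) is switched on by Cre under Sim1 control and stays on afterwards, so the sort takes cells that express Sim1 and cells whose precursors did. Each genotype was measured in 1 library, so no replicate spread and no p-value can be given. Intervals are 95% exact intervals that cover counting error only, and UMIs of one cell are not independent of each other.

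Pmch encodes the precursor of melanin-concentrating hormone (MCH), a peptide made by neurons of the lateral hypothalamus and zona incerta that promotes feeding and is tied to sleep and energy balance. MCH acts on its target cells through the receptor Mchr1. In the mouse, many MCH neurons also make the peptide encoded by Cartpt and carry the neurokinin receptor Tacr3, and MCH neurons hold Gad1, an enzyme of GABA synthesis, beside the glutamate transporter gene Slc17a6. Parpbp encodes a protein that binds PARP1 and restrains homologous recombination, and it is known mainly from dividing cells.

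The positions of the genes bear on what their counts can show. In the mm10 build with the GENCODE annotation, Pmch (ENSMUSG00000035383.7) lies on the plus strand at chr10:88091072-88092375, and Parpbp (ENSMUSG00000035365.15) on the minus strand at chr10:88091432-88146941. Exon 2 and exon 3 of Pmch, 435 of its 749 exonic bases (58.1%), lie opposite exon 11 of Parpbp, which is its last exon. The stop codon of Parpbp starts at position 88092855, so this stretch is opposite the 3′ UTR of Parpbp, and the 3′ end of Pmch, where Drop-seq reads collect, lies within it. The 3′ ends of the genes are 944 bases apart and their starts 55869 bases apart. The sources used here do not say whether strand was used in counting, so reads of the overlapping genes cannot be told apart, and a Parpbp count beside a high Pmch count is uncertain. The junction of Pmch exon 1 and exon 2 is shown because the overlap begins there; capitals mark the exon 2 bases, which lie opposite the last exon of Parpbp (mm10, plus strand).
Pmch junction: aataagaattcaaagAACACAGGCTCCAAA

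The promoters of the pair, 250 bases before to 50 bases after each start (RefSeq, GRCm38.p6), are shown because these windows lie far apart although the gene bodies overlap. Capitals mark the motif TATAAA and the dinucleotide CG. The Pmch window is chr10:88090822-88091121 on the plus strand and the Parpbp window chr10:88146892-88147191 on the minus strand.
Pmch promoter: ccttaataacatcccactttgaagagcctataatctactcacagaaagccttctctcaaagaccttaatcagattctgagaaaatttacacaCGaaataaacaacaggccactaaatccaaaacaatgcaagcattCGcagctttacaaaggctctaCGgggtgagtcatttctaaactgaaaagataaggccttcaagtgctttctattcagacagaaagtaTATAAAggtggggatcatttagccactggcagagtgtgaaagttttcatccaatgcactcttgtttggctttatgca
Parpbp promoter: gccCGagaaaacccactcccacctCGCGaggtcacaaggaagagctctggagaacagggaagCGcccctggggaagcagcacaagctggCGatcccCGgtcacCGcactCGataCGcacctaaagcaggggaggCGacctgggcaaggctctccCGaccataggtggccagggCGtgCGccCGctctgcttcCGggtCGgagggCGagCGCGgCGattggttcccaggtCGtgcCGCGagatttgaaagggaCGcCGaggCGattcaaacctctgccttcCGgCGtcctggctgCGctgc
The Pmch window held TATAAA once, starting 27 bases before the gene's start, and 3 CG dinucleotides. No TATAAA was found on either strand of the Parpbp window, which held 29 CG. Of 32851 promoter windows of this length, 13.6% held TATAAA on either strand, and the median number of CG was 7. The start of Parpbp lies 51 bases from that of Nup37, a nuclear pore gene on the opposite strand.

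The Sim1 heterozygous library held 5397693 UMIs in 2476 barcodes and the control library 6525080 UMIs in 2807. Cells with at least 300 genes were kept, 2454 Sim1 heterozygous and 2806 control cells, with medians of 1583 and 1772.5 UMIs. No barcode sequence was shared by the libraries. In cells without a Pmch UMI, Sim1 itself had 89.9 UMIs per 1000000 UMIs in the Sim1 heterozygous library and 113.8 in control; the sources used here do not say which part of the gene the mutant allele lacks, so this 3′ count does not check the genotype. The pituitary hormone gene Gh had 0 UMIs in such cells of the Sim1 heterozygous library and 225.6 per 1000000 in those of control.

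Pmch UMIs were fewer in the Sim1 heterozygous library, and nearly all of them came from a handful of cells. Pmch had 2033 UMIs in 141 Sim1 heterozygous cells, 377 UMIs per 1000000 UMIs (CPM) [361 to 394], and 8722 in 161 control cells, 1337 CPM [1309 to 1365]. That is 3.54-fold lower, a log2 difference of -1.82 [-1.90 to -1.76]. Parpbp was rare in both, with 15 UMIs in 10 Sim1 heterozygous cells, 2.78 CPM [1.56 to 4.59], and 109 UMIs in 26 control cells, 16.7 CPM [13.7 to 20.2]. Its log2 difference was -2.51 [-3.47 to -1.80]. Over the whole table, 4.18% of 14600 genes with enough UMIs were at least 2-fold lower in the Sim1 heterozygous library. Pmch was chosen for its difference, so this share does not measure how unusual that difference is. In summed counts, fewer cells with Pmch and less Pmch in each cell cannot be told apart, and a few deep cells weigh heavily. Without cells over 5000 UMIs the log2 difference was -1.003 for Pmch and -0.96 for Parpbp. Leaving out the cell with the most Pmch UMIs in each library gave -2.25 for Pmch.

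Counted cell by cell, Pmch was either very high or close to absent. Of the Sim1 heterozygous cells, 2313 had no Pmch UMI, 118 had 1, 11 had 2, and 3 had between 5 and 9. Of the control cells, 2645 had none, 115 had 1, 15 had 2, and 3 had 3. At 10 UMIs or more, called Pmch-rich here, there were 9 Sim1 heterozygous cells, 0.367% [0.168 to 0.695] of the library, and 28 control cells, 0.998% [0.664 to 1.44]. The ratio of these shares was 0.368 [0.153 to 0.801]. Just inside the threshold, the lowest Pmch-rich cell had 37 UMIs in the Sim1 heterozygous library and 19 in control, and just outside it the highest other cell had 7 and 3. Pmch-rich cells held 92.1% of all Pmch UMIs in the Sim1 heterozygous library and 98.2% in control. The threshold of 10 UMIs is not scaled to a cell's depth. With at least 5 Pmch UMIs the ratio of the shares was 0.49. With at least 20, 50 and 100 it was 0.381, 0.339 and 0.286. With cells thinned to the same total and at least 5 Pmch UMIs it was 0.554. These values lie within the interval of the ratio given above, but its size depended on the threshold and on depth.

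**Figure D1:**
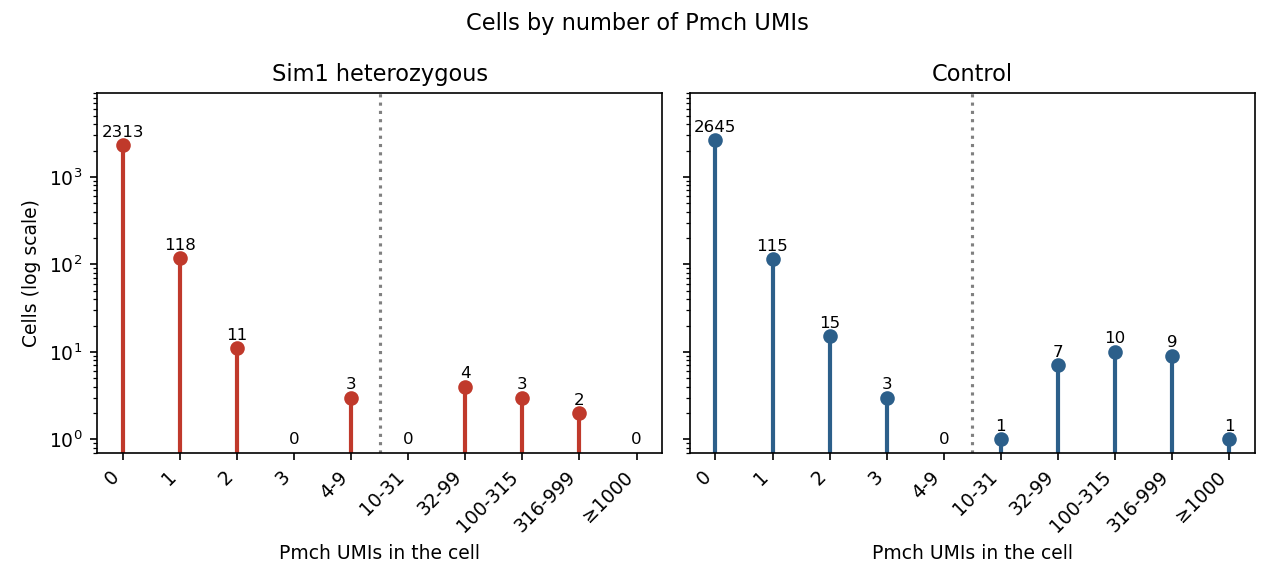
Number of cells (log scale) by Pmch UMIs in the cell, Sim1 heterozygous on the left and control on the right; the dotted line marks the threshold of 10 UMIs and each point carries its cell count. Most cells have 0 (2313 Sim1 heterozygous and 2645 control cells), and 9 and 28 cells lie to the right of the line.

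The Sim1 heterozygous Pmch-rich cells had 37 to 692 Pmch UMIs, with a median of 138, and the control cells had 19 to 1013, with a median of 193.5. The ranges overlapped over most of their length. The 2 highest cells held 61.7% of the Pmch UMIs of the Pmch-rich cells in the Sim1 heterozygous library and 21.3% in control. As a share of a cell's own UMIs, Pmch had a median of 10.7% (1.46 to 18.99%) in the Sim1 heterozygous cells and 7.54% (0.529 to 13.5%) in the control cells, so by this measure the Sim1 heterozygous median was not the lower one. The Pmch-rich cells were also deeper than others. Their median total was 2245 UMIs in the Sim1 heterozygous library, against 1573 in its cells without Pmch, and 3217 in control, against 1741. Doublets were not removed, and 2 Sim1 heterozygous and 9 control Pmch-rich cells had over 5000 UMIs; without all cells over 5000 UMIs the ratio of the shares of Pmch-rich cells was 0.423. The deepest, a control cell with 11523 UMIs, had 61 Pmch, 18 Igf1, 14 Slc17a6 and 3 Gad2 UMIs.

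Most Parpbp UMIs came from the Pmch-rich cells. Parpbp was detected in 6 of 9 Sim1 heterozygous and 19 of 28 control Pmch-rich cells, with 11 of 15 and 101 of 109 Parpbp UMIs. Outside them were 4 UMIs in 4 Sim1 heterozygous cells and 8 UMIs in 7 control cells. In cells without a Pmch UMI there were 2 Parpbp UMIs in 2313 Sim1 heterozygous cells and 5 in 2645 control cells. For every 100 Pmch UMIs of the Pmch-rich cells there were 0.587 Parpbp UMIs [0.293 to 1.05] in the Sim1 heterozygous library and 1.18 [0.960 to 1.43] in control. These ratios compare 3′ tag counts and are not per length. A single Sim1 heterozygous cell gave 5 of the 11 Parpbp UMIs, and without it the ratio was 0.347 [0.127 to 0.755]; without its highest cell, with 18, control had 1.06 [0.844 to 1.31].

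Over all cells, the Pearson correlation of Pmch with Parpbp, on log2(1 + UMIs per 10000), was 0.451 in 2454 Sim1 heterozygous cells and 0.673 in 2806 control cells. Within Pmch-rich cells it was 0.630 over 9 Sim1 heterozygous and 0.495 over 28 control cells. Among the other cells it was 0.0962 and 0.0230. On raw UMIs, over all cells, it was 0.423 in the Sim1 heterozygous and 0.850 in the control library. Within Pmch-rich cells the raw value was -0.003 in the 9 Sim1 heterozygous cells, whose 2 highest Pmch cells had 1 Parpbp UMI each, and 0.751 in the 28 control cells. Cells of one library share their source, and the counts of both genes in a cell share that cell's depth. Spearman's correlation of Pmch with a cell's total UMIs was 0 in the 9 Sim1 heterozygous and 0.719 in the 28 control Pmch-rich cells.

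**Figure D2:**
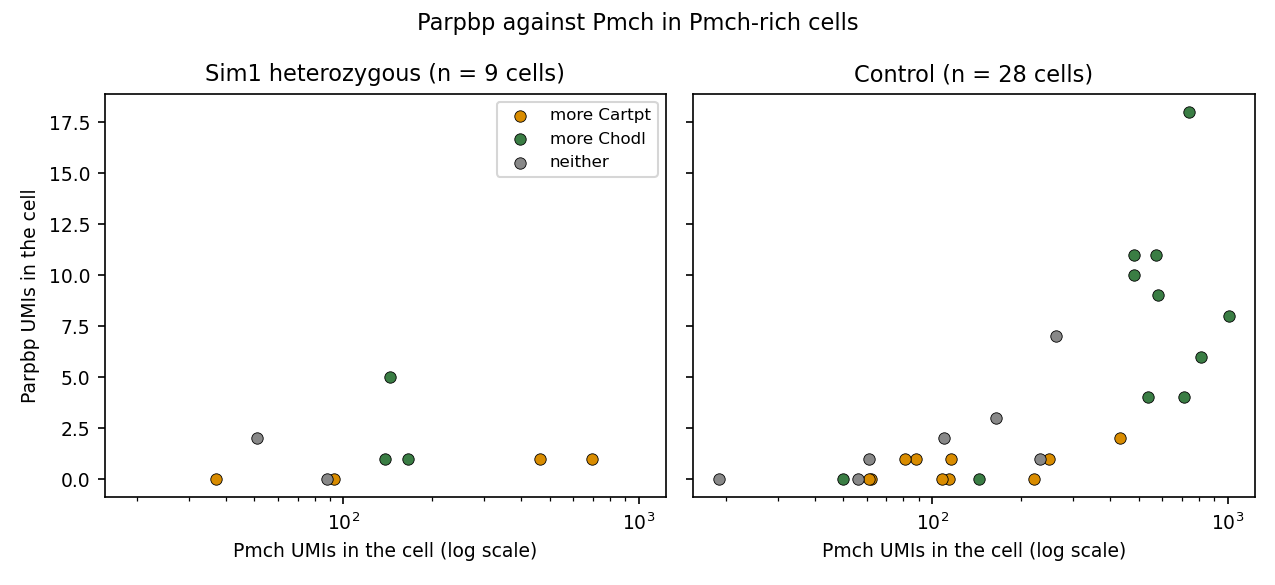
Parpbp UMIs against Pmch UMIs (log scale) in each Pmch-rich cell, 9 Sim1 heterozygous cells on the left and 28 control cells on the right, coloured by whether the cell had more Cartpt, more Chodl or neither. The cells with 8 or more Parpbp UMIs are control cells with more Chodl than Cartpt; the 2 highest Sim1 heterozygous Pmch cells have 1 Parpbp UMI each.

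Pmch-rich cells were also sorted by their UMIs of Cartpt, a peptide precursor gene, and Chodl, which encodes the membrane protein chondrolectin. This division was singled out after the values were seen. Cartpt without Chodl was found in 3 Sim1 heterozygous and 9 control cells, Chodl without Cartpt in 3 and 10, both in 1 and 2, and neither in 2 and 7. Many of these calls rest on little: exactly 1 Chodl UMI was found in 3 of the 4 Sim1 heterozygous and 3 of the 12 control cells with any, and exactly 1 Cartpt UMI in 0 of 4 and 3 of 11. In cells without Pmch, Cartpt had a UMI in 18.9% of Sim1 heterozygous and 11.6% of control cells, and Chodl in 8.91% and 7.52%, so membership of a cell with a single UMI is uncertain. In the Sim1 heterozygous library the 2 highest Pmch cells, with 692 and 464 UMIs, had 70 and 50 Cartpt UMIs and no Chodl. In control the 9 highest Pmch cells, with 483 to 1013 UMIs, had 4 to 21 Chodl UMIs each and at most 1 Cartpt UMI. The next control cell, with 432 Pmch UMIs, had 63 Cartpt UMIs and no Chodl. The cells at the very top of the Pmch range thus differed between the libraries in these genes, but this rests on few cells and on where the cut is set.

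The Parpbp ratio was lower in cells with more Cartpt than Chodl, with the same limit on which cells these are. Cells with more Cartpt had 0.156 Parpbp per 100 Pmch UMIs [0.0188 to 0.562] in the Sim1 heterozygous library (4 cells) and 0.391 [0.144 to 0.852] in control (10 cells). Cells with more Chodl had 1.56 [0.628 to 3.22] in the Sim1 heterozygous library (3 cells, each with 1 Chodl UMI) and 1.32 [1.05 to 1.64] in control (11 cells). In the Sim1 heterozygous library the second value rests on the cell with 5 Parpbp UMIs, without which it was 0.658 [0.0797 to 2.38]. Cells with neither gene had 1.44 [0.174 to 5.20] in the Sim1 heterozygous library (2 cells) and 1.55 [0.845 to 2.59] in control (7 cells). In control, cells with more Cartpt had medians of 2036 total and 111 Pmch UMIs, and those with more Chodl 6301 and 574. In the Sim1 heterozygous library these medians were 2616 and 278.5 for more Cartpt, and 1292 and 144 for more Chodl. The effect of depth on the ratio was not tested. In control, Samhd1, a dNTP hydrolase, had 1 UMI in the 10 cells with more Cartpt, 34.4 CPM [0.872 to 192]. It had 14 UMIs in 9 of the 11 control cells with more Chodl, 235 CPM [128 to 394]. The growth factor gene Igf1 had 1137 CPM [783 to 1596] in the control cells with more Cartpt and 386 [245 to 579] in those with more Chodl. Of the 33 Igf1 UMIs in the cells with more Cartpt, 18 came from the cell with 11523 UMIs, which is in this set on 1 Cartpt UMI. A single cell also gave 10 of the 23 Igf1 UMIs in the cells with more Chodl, so this contrast rests on few cells.

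**Figure D3:**
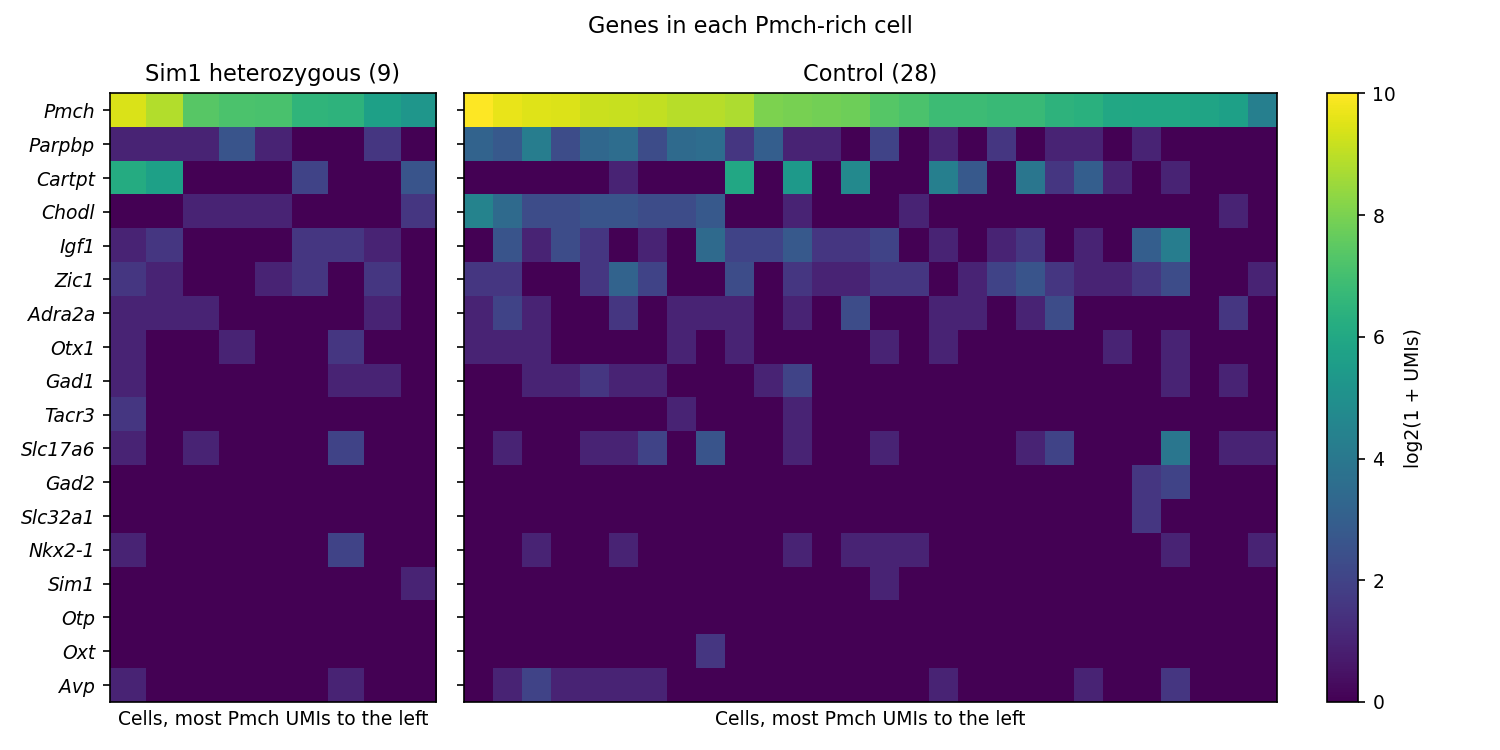
UMIs, as log2(1 + UMIs), of selected genes (rows) in each Pmch-rich cell (columns, most Pmch to the left), 9 Sim1 heterozygous cells on the left and 28 control cells on the right. Cartpt and Chodl are rarely high in the same cell, and the Otp row is 0 in every cell.

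To see what else marks these cells, summed UMIs of the Pmch-rich cells were set against those of cells without Pmch in the same library, as CPM of the UMIs without Pmch and Parpbp. The cells were chosen by Pmch, so the ratios describe them and are not a test. Of 482 genes with enough UMIs in the Sim1 heterozygous library, 68 (14.1%) were at least 2-fold higher and 21 (4.36%) at least 2-fold lower, with a pseudocount of 1 UMI and at least 10 UMIs observed in, or expected for, the Pmch-rich cells. Of 2764 in control, 167 (6.04%) were higher and 117 (4.23%) lower. The median ratio over all genes tested was 1.24 in the Sim1 heterozygous and 1.11 in the control library. Rare genes pass this minimum only when they are high in the Pmch-rich cells, so the excess of higher over lower genes is partly set by it. With at least 10 UMIs expected, whatever was observed, 8 of 328 genes were higher and 21 lower in the Sim1 heterozygous library, with a median of 1.03. In control, 47 of 2323 were then higher and 117 lower, with a median of 1.03. Without cells over 5000 UMIs the counts of higher genes were 19 and 92, and without the highest Pmch cell the Sim1 heterozygous count was 44. The 20 higher and 10 lower genes named here were ranked in control cells, so the ranking did not use their Sim1 heterozygous values, although a correction of the filter was made with those values in view. Of the 20, only Cartpt and Gabra2 reached the UMI minimum in the 9 Sim1 heterozygous cells. Taken without a minimum or a pseudocount, 19 of the 20 had a UMI there, 18 had a ratio above 1, 13 were at least 2-fold higher and 10 had an interval wholly above 1. Of the 2092 genes that could have been named as higher, 94.6% had a UMI in those cells, 47.7% a ratio above 1, 9.13% a ratio of at least 2 and 5.31% an interval wholly above 1.

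A growth factor gene, a transmitter enzyme and a peptide led the higher group. Igf1 was 24.0-fold higher [9.98 to 49.7] in Sim1 heterozygous Pmch-rich cells, with 8 UMIs in 5 of 9 cells, and 55.1-fold higher [39.2 to 77.3] in control ones, with 72 UMIs in 18 of 28. It is also the nearest protein-coding gene upstream of Pmch, 154030 bases away. Gad1 was 222-fold higher [29.7 to 1655] on 3 Sim1 heterozygous UMIs and 60.9-fold [24.6 to 152] on 12 control UMIs. Cartpt was 28.01-fold higher [23.1 to 33.7] in the Sim1 heterozygous cells and 13.8-fold [11.7 to 16.2] in the control cells. These 3 genes were thus high in both libraries, with the Sim1 heterozygous value resting on few cells. Chodl was 3.40-fold higher [1.10 to 8.02] in the Sim1 heterozygous cells and 11.4-fold [8.62 to 14.9] in the control cells. With a pseudocount of 1 UMI and without cells over 5000 UMIs, the log2 ratio was 4.52 in Sim1 heterozygous and 5.04 in control cells for Cartpt, and 3.15 in Sim1 heterozygous and 1.69 in control cells for Chodl, so which library had the higher Chodl ratio depended on these cells.

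Among receptors and regulators, Adra2a, an adrenergic receptor, was 5.76-fold higher [1.55 to 15.1] in the Sim1 heterozygous cells and 10.9-fold [6.72 to 17.0] in the control cells. The transcription factor gene Zic1 was 4.16-fold higher [1.79 to 8.28] in the Sim1 heterozygous cells and 3.19-fold higher [2.34 to 4.25] in the control cells. Gabra2, a GABA-A receptor subunit, was 2.74-fold higher [1.53 to 4.53] in the Sim1 heterozygous cells and 2.58-fold higher [1.95 to 3.36] in the control cells. Parm1, Fam46a and Nwd2 also had intervals above 1 in both. Samhd1 had 0 UMIs in the Sim1 heterozygous cells and 17 in the control cells. Sox2, Adgrf5, Gpx3, Pcdh8, Fstl5, Atp1b3, Vat1l and Syt4 had ratios above 1 in the Sim1 heterozygous cells with intervals that reached below 1, and Thsd7a had 0.972 [0.117 to 3.53]. With the pseudocount and without cells over 5000 UMIs, the log2 ratio in control cells was 4.04 for Parm1, 2.15 for Zic1 and 0.77 for Fstl5, and it was 3.39 for Nwd2 in Sim1 heterozygous cells.

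Among the lower genes were peptide and transcription factor genes known from other hypothalamic neurons. The vasopressin gene Avp had a ratio of 0.0586 [0.00710 to 0.212] in the Sim1 heterozygous cells and 0.0203 [0.0105 to 0.0355] in the control cells. The transcription factor gene Otp had 0 UMIs in both sets of cells. The interval of its ratio reached up to 0.719 in the Sim1 heterozygous cells and 0.0957 in the control cells. Foxb1, a factor of the mammillary region, had ratios of 0.195 [0.0530 to 0.499] in the Sim1 heterozygous cells and 0.0892 [0.02895 to 0.208] in the control cells. The peptide gene Cck had 0.142 [0.0172 to 0.514] in the Sim1 heterozygous cells and 0.0587 [0.0121 to 0.172] in the control cells. Lhx1os, Oxt, Sparcl1, Fabp7, Nrn1 and Peg10 completed the list. In the Sim1 heterozygous cells 4 of the 10 reached the UMI minimum and none had a ratio above 1, but the intervals of Oxt (to 1.76), Sparcl1 (to 1.39), Fabp7 (to 1.08) and Peg10 (to 1.12) reached past 1. With the pseudocount and without cells over 5000 UMIs, the control log2 ratio of Foxb1 was -2.14. Sim1 had 1 UMI in each set of Pmch-rich cells. Its ratio was 0.489 [0.0124 to 2.74] in the Sim1 heterozygous cells, where 2.04 UMIs were expected, so no difference is shown there. In the control cells, with 12.2 expected, it was 0.0821 [0.00208 to 0.459].

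**Figure D4:**
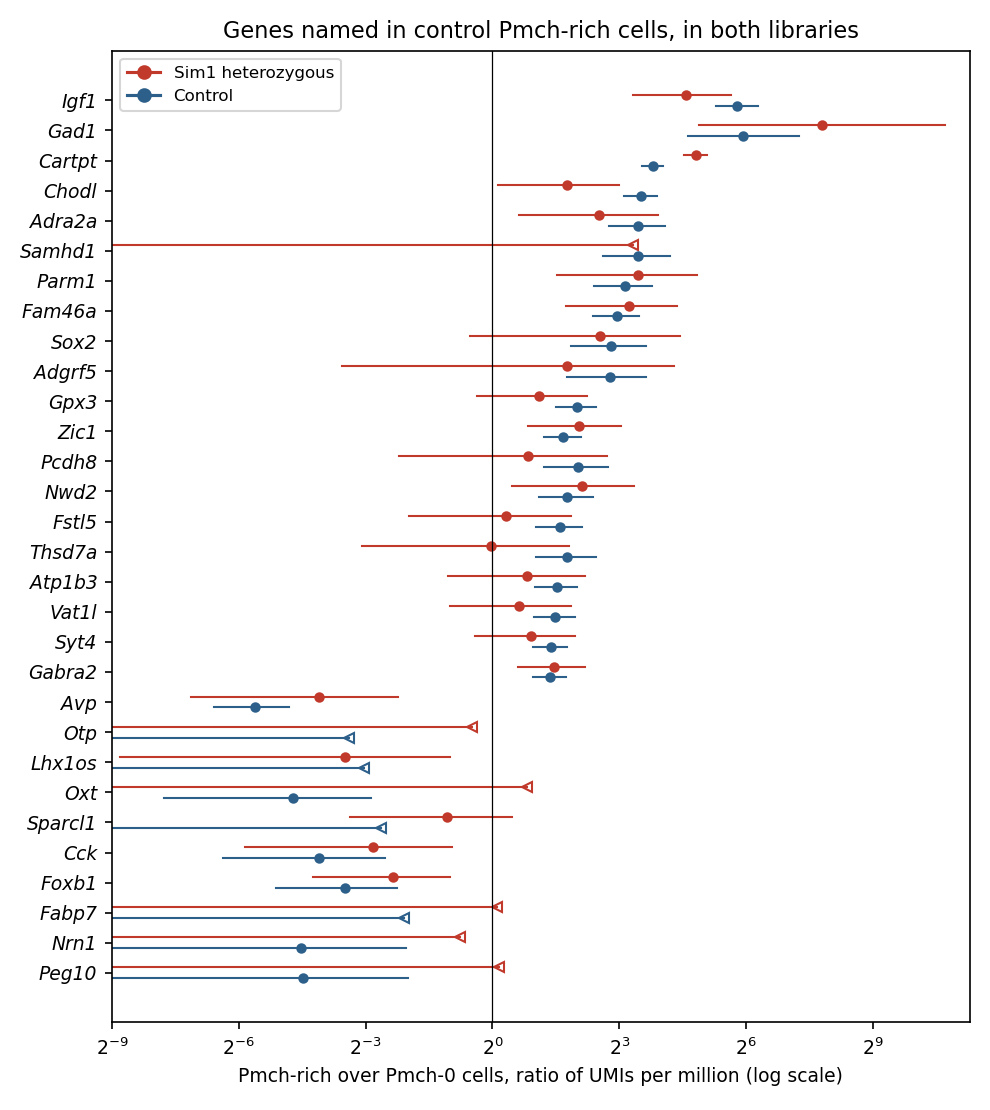
Ratio of CPM (log scale) in Pmch-rich over Pmch-0 cells for the 20 genes named as higher and the 10 named as lower in control, with 95% exact intervals, Sim1 heterozygous above control for each gene; open triangles mark genes with 0 UMIs in the Pmch-rich cells, at the upper bound. Of the 20, 18 lie above 1 in the Sim1 heterozygous cells, and of the 10, 0 do.

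The genes whose levels over cells were most like that of Pmch, by the smaller of the Pearson correlations in the libraries, were Parpbp, Gad1, Otx1, Igf1 and Tacr3. After Parpbp the correlations were modest, 0.251 in the Sim1 heterozygous and 0.274 in the control library for Gad1, and 0.210 and 0.248 for the transcription factor gene Otx1. Otx1 had 4 UMIs in 3 of 9 Sim1 heterozygous and 9 UMIs in 9 of 28 control Pmch-rich cells, against 0.595 and 1.51 CPM in cells without Pmch. Tacr3 had 2 UMIs in each library's Pmch-rich cells. In counts this sparse such correlations rest on a few cells.

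Of the peptide processing list, 3 of 7 genes tested were at least 2-fold higher in the Sim1 heterozygous and 3 of 10 in the control cells, against 14.1% and 6.04% of all genes tested. None of its genes tested was at least 2-fold lower, and its median ratios were 1.86 and 1.54, against 1.24 and 1.11 for all genes tested. Pcsk1n, an inhibitor of a prohormone convertase, was 2.91-fold higher [2.27 to 3.68] in the Sim1 heterozygous cells and 2.38-fold higher [2.12 to 2.675] in the control cells. Of the neuropeptide list, 1 of 3 genes tested was higher (Cartpt) and 2 lower in the Sim1 heterozygous cells, and 1 of 9 was higher and 7 lower in the control cells, where 4.23% of all genes tested were lower; in the Sim1 heterozygous library that share was 4.36%. The neuron list had 0 of 7 and 0 of 10 genes past 2-fold in either direction, with medians of 1.04 and 1.11.

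Transmitter genes were uneven. Slc17a6 had ratios of 0.280 [0.0908 to 0.653] in the Sim1 heterozygous and 0.504 [0.347 to 0.709] in the control Pmch-rich cells. Gad1 was detected in 3 of 9 and 9 of 28 cells. Gad2, the other GABA-synthesis gene, had 0 and 5 UMIs, and Slc32a1, the vesicular GABA transporter gene, 0 and 2. From cells without Pmch, 1.16 Sim1 heterozygous and 3.12 control UMIs were expected for Gad2, and 0.14 and 0.896 for Slc32a1. Neither Gad2 nor Slc32a1 is thus shown to be low. Both Slc32a1 UMIs and 2 of the control Gad2 UMIs came from a single cell. The other 3 Gad2 UMIs came from the cell with 11523 UMIs. Mchr1 and Hcrt, the precursor gene of the neighbouring orexin neurons, had 0 UMIs in the Pmch-rich cells of both libraries. At the level of cells without Pmch, 0.271 Sim1 heterozygous and 0.681 control UMIs were expected for Mchr1, and 0.0271 and 0.107 for Hcrt. These zeros therefore do not show that either gene was low in the Pmch-rich cells. None of the proliferation genes or the partners of Parpbp in DNA repair had enough UMIs to be tested, and their summed UMIs were 4 and 5 in the Sim1 heterozygous and 4 and 11 in the control cells.

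Markers of most other cell types had few UMIs in the Pmch-rich cells. The microglial list had 0 UMIs in the Sim1 heterozygous and 1 in the control cells, and the endothelial, ependymal, fibroblast and erythroid lists had 0 in both. The oligodendrocyte list had 1 and 6 UMIs. The astrocyte list had 484 CPM in the Sim1 heterozygous cells, against 654 in cells without Pmch, and 486 in the control cells, against 568. The pituitary list had 2 and 14 UMIs, of which Gh gave 0 and 12, and Gh was at 112 CPM in the control Pmch-rich cells, against 226 in control cells without Pmch.

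When cells were clustered without Pmch, Parpbp, Sim1 and the Irx, mitochondrial and X- or Y-linked genes, the Pmch-rich cells did not form a cluster of their own. The smallest cluster had 65 cells, more than the 37 Pmch-rich cells, so at this resolution the result says little on how distinct they are. The 9 Sim1 heterozygous cells lay in 5 clusters, with at most 4 in one, and the 28 control cells in 6, with at most 11 in one. The clusters with the most of them held 11, 8 and 6 control cells and 1, 4 and 2 Sim1 heterozygous cells.

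Outside the Pmch-rich cells a low Pmch count was spread thinly. Cells under 10 UMIs had 0.0654 Pmch UMIs per cell [0.0557 to 0.0764] in the Sim1 heterozygous library and 0.0554 [0.0470 to 0.0649] in control, and 5.40% and 4.79% of them had a Pmch UMI. In glia-like cells, which should lack Pmch, the shares were 3 of 59 (5.08% [1.06 to 14.1], median 879 UMIs) in the Sim1 heterozygous library and 3 of 57 (5.26% [1.10 to 14.6], median 1366 UMIs) in control. The glia-like cells are few and shallower than the low cells as a whole, whose medians were 1580 UMIs in the Sim1 heterozygous library and 1766 in control, so their intervals are wide. They do not separate a low Pmch count in other cells from a background present in every cell type. Without the 3 Sim1 heterozygous cells with 6 or 7 UMIs, that library had 0.0573 UMIs per cell. Thinned to 857 UMIs per cell, 2.35% [1.70 to 3.15] of 1832 Sim1 heterozygous and 1.83% [1.35 to 2.42] of 2623 control cells had a Pmch UMI, with 613 and 155 cells too shallow to be thinned.

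Among cells under 5 Pmch UMIs, the share with a Pmch UMI followed depth in control and less so in the Sim1 heterozygous library; this difference was not tested. In 4 depth groups, from the shallowest to the deepest cells, it was 4.37, 5.61, 5.21 and 6.33% in the Sim1 heterozygous library and 2.07, 2.79, 5.35 and 8.37% in control. In CPM the Sim1 heterozygous values were 68.8, 40.8, 24.9 and 14.5, and the control values 27.7, 26.8, 25.6 and 21.7. The background count was thus close to proportional to depth in control and closer to constant per cell in the Sim1 heterozygous library.

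**Figure D5:**
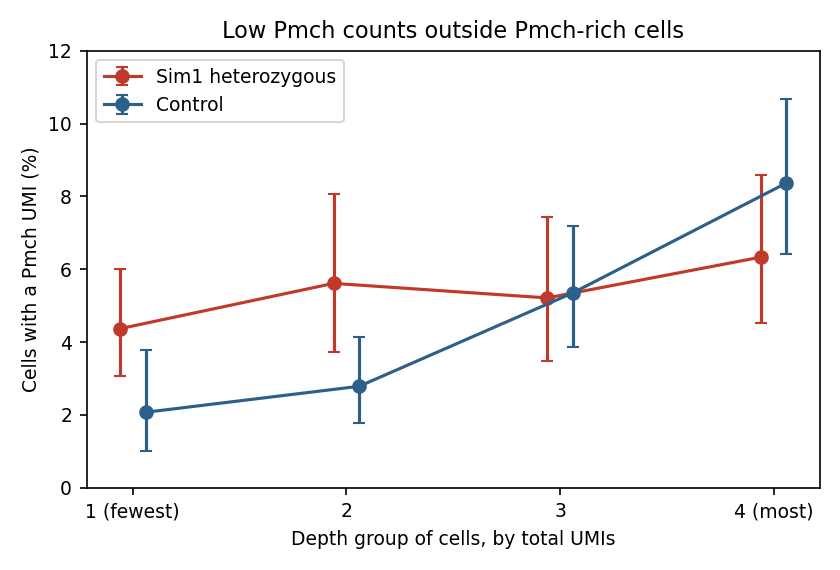
Percentage of cells under 5 Pmch UMIs that have a Pmch UMI, by depth group (1 has the fewest total UMIs, 4 the most), with 95% exact intervals, for the Sim1 heterozygous library (listed first) and control. Control goes up from 2.07 to 8.37% with depth, and the Sim1 heterozygous values lie between 4.37 and 6.33%.

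In the Sim1 heterozygous library 3 cells had 6 or 7 Pmch UMIs. The 20 genes named as higher in control Pmch-rich cells summed to 7356 CPM [4493 to 11360] in these cells, on 20 UMIs. The same sum was 9593 in Sim1 heterozygous Pmch-rich cells, 1741 in cells with 1 to 4 Pmch UMIs and 1553 in cells with none. In control it was 7690 in Pmch-rich cells, 1454 in cells with 1 to 4 and 1480 in cells with none. Cartpt gave 128 of the 218 UMIs behind the value of the Sim1 heterozygous Pmch-rich cells, 70 and 50 of them in 2 cells. Without Cartpt the sum was 3960 CPM [3185 to 4868] in those cells, 6252 [3642 to 10011] in the 3 cells, 1510 in cells with 1 to 4 Pmch UMIs and 1352 in cells with none. In control it was then 5999, 1403 and 1357 CPM in Pmch-rich cells, cells with 1 to 4 and cells with none. The 20 genes were chosen as high in control Pmch-rich cells over control cells without Pmch, so the control gap between these classes was set by that choice. With or without Cartpt, cells with 1 to 4 Pmch UMIs had sums closer to cells without Pmch than to Pmch-rich cells.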

How the data were processed

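The authors deposited raw UMI counts per gene and cell barcode, 1 table per library and a merged one that held identical values. Per the submitters' processing notes, bcl2fastq, Picard, STAR 2.6.0b, Seurat 3 and mm10 were used; the sources used here do not give the annotation, the counter or its use of strand. Cells with at least 300 genes were kept; doublets were not removed. Counts were summed per library or cell class and divided by UMIs. Intervals are exact (Poisson, Clopper-Pearson or conditional binomial, 95%). With 1 library per genotype there is no test. Ratios called at least 2-fold use a pseudocount of 1 UMI and genes with at least 10 UMIs observed in, or expected for, the Pmch-rich cells; ratios printed for single genes, and the counts over the 20 named genes in Sim1 heterozygous cells, use neither, except the log2 ratios without deep cells, which carry the pseudocount. Of the symbols, 23481 (94.3%) matched GENCODE M21; promoters are from RefSeq (GRCm38.p6). Clusters (scanpy 1.11.5, leidenalg 0.10.2) used 2000 variable genes, 30 components and a resolution of 1. Other tools were Python 3.11.15, numpy 2.4.6, scipy 1.17.1 and pandas 2.3.3.

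The members and lists were chosen with earlier results of these data known. Named genes were the 20 higher and 10 lower in control Pmch-rich cells with the interval bound farthest from 1, leaving out mitochondrial, ribosomal, haemoglobin, sex-linked, clone-named and pseudogene symbols, the 5 genes most like Pmch over cells, leading members of each list, and neighbours within 200 kb. A first version of this filter also left out symbols that the annotation does not hold, which the rule does not ask for. It was corrected after the values were seen, which put Fam46a (an older symbol of Tent5a) in place of Pik3ip1; the values under both versions are given with the alternatives. Other alternatives changed the cell filter, scaling, thresholds, pseudocount and depth, or left out single cells or deep cells.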

Additional observations from a re-analysis of the deposited data

How the results depend on the processing

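Of 100 alternative values of the main results, 77 stayed within the interval of the value reported, or within 1.5 times for counts of genes. Another 23 moved beyond it and 0 reversed. A reversal could be recorded only for log2 differences and correlations, so for all other main results the 0 was fixed in advance. The interval was a counting interval, except for correlations, where it was an approximate one (Fisher's z) that treats cells as independent. The cause of the moves was not tested. The log2 difference of Pmch was -2.25 without the cell with the most Pmch UMIs in each library, -1.003 without cells over 5000 UMIs (both chosen after seeing the data) and -1.03 as a mean of per-cell values; that of Parpbp was -0.96 without cells over 5000 UMIs and -0.82 as a mean of per-cell values. As a median of cells, Parpbp per 100 Pmch UMIs was 0.216 in Sim1 heterozygous and 0.743 in control cells. The Sim1 heterozygous correlation was 0.498 with at least 500 genes per cell and 0.402 without the 2 highest Pmch cells; in control it was 0.850 on raw UMIs, 0.649 without the 2 highest cells and 0.562 without cells over 5000 UMIs. Thinned background was 0.0257 and 0.0198 UMIs per cell. Genes at least 2-fold higher in Pmch-rich cells numbered 340 and 540 (Sim1 heterozygous and control) with at least 5 UMIs, 10 and 61 with at least 20, 8 and 47 with at least 10 expected (added after seeing the data), and 19 and 92 without cells over 5000 UMIs; without the highest Pmch cell the Sim1 heterozygous count was 44. Named genes gave 620 alternative values, of which 12 moved and 1 reversed. Some alternatives left the cells behind a value unchanged, such as at least 20 Pmch UMIs in the Sim1 heterozygous library. Others shift a value by construction, such as thinning or another UMI minimum. Intervals on few UMIs are wide, so neither tally of alternatives measures robustness. With unannotated symbols left out, the first version of the filter, Pik3ip1 replaces Fam46a, and 12 rather than 13 of the 20 genes were at least 2-fold higher in Sim1 heterozygous cells. The reversed value was that of Pik3ip1, with 0 Sim1 heterozygous UMIs, at a log2 ratio of -0.73 with a pseudocount of 0.5 UMI. No paired analysis was possible because each genotype has 1 library.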
